A study of Mus musculus with 4 samples.

Results

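The endoplasmic reticulum (ER) folding and secretion genes are 38 genes chosen by name from the 32287 features that the count tables list. All 38 were found, each under 1 identifier. They were read in cells of mouse hearts, as single-cell RNA counts summed by cell class in each of 4 libraries. The cells were live nucleated interstitial cells, sorted from digested hearts and labelled as interstitial cells of the heart. Every heart carried Tcf21-MerCreMer, a tamoxifen-inducible Cre recombinase driven from the Tcf21 gene, which is active in fibroblasts and related cells, and every mouse received tamoxifen. The control libraries are labelled with that allele and no flox, and the others carry Tcf21-MerCreMer:flox, described in the series as a deletion of TCF21 in cardiac fibroblasts. RNA of the reporter eGFP was counted in the fibroblasts of each library, so hearts of both genotypes held a reporter as well. Each genotype was taken without injury and 3 days after myocardial infarction, in which loss of blood flow kills part of the heart muscle. There was 1 library per group, the number of animals behind each is not given in the sources used here, and animal ages are not given either. No spread between animals is known, no test was run and no p-value is given. The 95% intervals cover counting error only.

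The libraries held 55710468 to 129704045 unique molecular identifiers (UMIs, 1 per RNA molecule captured) over 9149 to 11541 barcodes, and 8304 to 10175 cells were kept in each. Between 19 and 41 barcodes were shared by a pair of libraries. Fibroblasts, the cells that make the collagen-rich matrix, numbered 1854 in the control and 1907 in the deletion-labelled library without infarction, and 887 and 1417 after infarction. Their median depths were 10534, 13435, 30053 and 18457 UMIs per cell in that order, which is the order of libraries used throughout. Levels are in CPM, the UMIs of a gene per 1000000 UMIs of the cells summed. Tcf21 stood in these fibroblasts at 95.1 CPM (90.8 to 99.4), 148 CPM (143 to 153), 22.9 CPM (21.1 to 24.8) and 33.6 CPM (31.7 to 35.7), so its RNA was higher, not lower, in the libraries labelled as deletion. The sources used here do not say which part of the gene is floxed, and a count read near the 3' end checks the label only if that end is removed. The libraries are therefore called deletion-labelled, and every direction below is one of labels. The fibroblast markers Pdgfra and Dcn were found in every library but at unlike levels. Pdgfra stood at 719, 561, 157 and 224 CPM, and Dcn at 15501, 16808, 1591 and 5045 CPM. Reporter eGFP stood at 631, 353, 1398 and 704 CPM. The leukocyte marker Ptprc reached at most 5.07 CPM in these cells. The part of such differences between the fibroblasts in the members' ratios was not tested.

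The ER is where secreted and membrane proteins are threaded through the Sec61 channel, folded by chaperones and disulfide isomerases, checked, and then packed into vesicles for the Golgi. When unfolded protein builds up, the sensors ATF6, IRE1 and PERK start the unfolded protein response, which raises the RNA of many of these same chaperones and of the machinery that removes misfolded protein. Cardiac fibroblasts secrete large amounts of collagen, whose chains need prolyl isomerases and chaperones to fold, and more so when they become activated after injury. The 38 genes fall into 8 groups by role. Hspa5, Hyou1, Hsp90b1, Calr, Canx, Sdf2l1, Manf and Creld2 are luminal chaperones or their helpers. Dnajb9, Dnajb11 and Dnajc3 are J-proteins, which drive the ATPase of the HSPA5 chaperone. Pdia3, Pdia4, Pdia6 and P4hb are disulfide isomerases, and Fkbp10, Fkbp11 and Ppib are prolyl isomerases. Xbp1, Atf4, Atf6 and Trib3 are regulators of the stress response. Herpud1, Sel1l and Edem1 serve degradation of misfolded protein. Sec61a1, Sec61b, Sec61g, Ssr1, Ssr2, Ssr3, Ssr4, Tram1 and Ostc belong to the translocon or to oligosaccharide transfer beside it, and Sec23a, Sec24d, Kdelr2 and Kdelr3 to the vesicle coat or to retrieval of ER proteins.

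Known sequence elements through which the response acts were searched in the promoters, because members that share an element can be set beside each other in the values that follow. RefSeq promoter windows of GRCm38.p6, from 250 bases before to 50 after the start of transcription, were found for 29 of the 38 genes and not for Atf6, Fkbp10, Hyou1, Kdelr2, Manf, Ostc, Sec61a1, Ssr2 and Tram1. The ER stress response element (ERSE) was found on either strand in 7 of the 29 genes and in 39 of all 32851 windows (0.119%). The shorter ERSE-II was found in 2 of the 29 and in 12 of all windows (0.0365%). The core TGACGTGG, an XBP1 site, was in the windows of Kdelr3, Sec23a and Sec24d and in 222 of all windows (0.676%), and no ERSE or ERSE-II stood in those 3. A match is only a run of letters and does not show that a factor binds there. The matched elements are given here in the direction of the motif, with the bases that the motif fixes in capitals and those it leaves free in lower case, and Hsp90b1 has a pair of them. The 19-base ones are ERSE and the 11-base ones ERSE-II.
Hspa5: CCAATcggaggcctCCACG
Calr: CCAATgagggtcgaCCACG
Herpud1: ATTGGgCCACG
Hsp90b1: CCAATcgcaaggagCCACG
Hsp90b1: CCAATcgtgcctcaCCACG
Canx: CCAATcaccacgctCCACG
Pdia6: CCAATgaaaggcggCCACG
Dnajc3: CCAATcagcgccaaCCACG
Creld2: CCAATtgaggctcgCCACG
Dnajb11: ATTGGcCCACG

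Hspa5, Hsp90b1, Dnajc3 and Creld2 were at least 1.5-fold lower in uninjured deletion-labelled fibroblasts than in control ones, and the 250 bases before the start of each are shown with the elements in capitals. The Hspa5 stretch lies at chr2:34771840-34772089 on the plus strand, with its element at -65 to -47 from the start. That of Hsp90b1 lies at chr10:86705445-86705694 on the minus strand, with elements at -212 to -194 and, on the opposite strand, at -107 to -89. The Dnajc3 stretch lies at chr14:118937682-118937931 on the plus strand, with its element at -105 to -87. The Creld2 stretch lies at chr15:88819396-88819645 on the plus strand, with its element at -126 to -108 on the opposite strand. Starts here are those of RefSeq. The gene bounds given with the values are those of the GENCODE annotation, where Hspa5 begins at 34771970 and Hsp90b1, on the minus strand, at 86705509, so part of both stretches lies inside those bounds, with the Hspa5 element.
Hspa5: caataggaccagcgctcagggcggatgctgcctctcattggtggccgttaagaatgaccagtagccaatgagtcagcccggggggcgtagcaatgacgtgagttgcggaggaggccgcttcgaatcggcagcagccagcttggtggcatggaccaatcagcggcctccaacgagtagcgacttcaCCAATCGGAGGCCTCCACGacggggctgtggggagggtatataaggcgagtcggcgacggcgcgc
Hsp90b1: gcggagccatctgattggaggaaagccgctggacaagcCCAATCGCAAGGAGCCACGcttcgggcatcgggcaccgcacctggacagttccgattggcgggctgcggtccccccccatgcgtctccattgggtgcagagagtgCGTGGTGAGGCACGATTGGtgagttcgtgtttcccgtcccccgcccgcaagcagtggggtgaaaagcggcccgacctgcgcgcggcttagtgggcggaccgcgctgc
Dnajc3: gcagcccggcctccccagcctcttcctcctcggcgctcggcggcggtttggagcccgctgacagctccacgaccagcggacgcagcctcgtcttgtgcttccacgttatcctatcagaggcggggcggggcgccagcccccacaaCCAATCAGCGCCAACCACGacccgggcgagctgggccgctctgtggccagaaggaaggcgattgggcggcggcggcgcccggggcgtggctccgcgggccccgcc
Creld2: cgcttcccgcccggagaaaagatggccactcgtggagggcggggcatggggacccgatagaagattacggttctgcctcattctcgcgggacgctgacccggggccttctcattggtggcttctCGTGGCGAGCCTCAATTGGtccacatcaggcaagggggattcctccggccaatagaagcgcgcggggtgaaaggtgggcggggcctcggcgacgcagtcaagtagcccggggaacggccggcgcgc

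Fibroblasts devoted more of their RNA to these genes than any other named class compared, in 4 of 4 libraries. The 38 genes together made up 1.11% and 0.867% of fibroblast UMIs in uninjured hearts, then 1.72% and 1.6% after infarction. For mural cells, the pericytes and smooth muscle of vessels, the sum was 0.618%, 0.485%, 1.22% and 1.02%. Mononuclear phagocytes, the monocytes and macrophages, stood at 0.601%, 0.569%, 0.976% and 0.989%. Their values leave out a pair of clusters that scored as this class but were not named, whose levels are given further on. The same sum was 0.526%, 0.478%, 0.832% and 0.817% in endothelial cells, which line vessels, and 0.426%, 0.355%, 0.597% and 0.695% in B cells. Each of these 5 classes stood higher in both infarction libraries than in both others. T or NK cells did not, with 0.493%, 0.492%, 0.452% and 0.464%. Neutrophils were lowest in each of the 3 libraries that held 50 of them, at 0.198%, 0.373% and 0.340%.

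**Figure D1:**
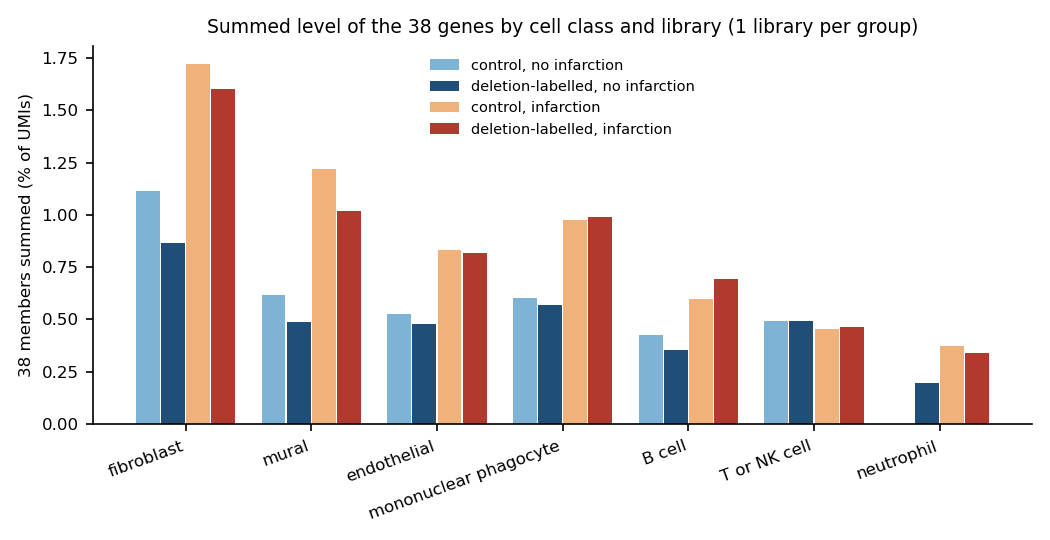
Summed level of the 38 genes as a percent of all UMIs of a class (y axis, from 0), with 1 bar per library and class. Fibroblast bars stand highest in every library, at 1.11, 0.867, 1.72 and 1.6%, and the neutrophil bar of the control library without infarction is left out because it held 32 cells.

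By role, fibroblasts led in luminal chaperones, J-proteins, disulfide isomerases, prolyl isomerases, translocon genes and vesicle genes in each of the 4 libraries. Their summed luminal chaperones stood at 5006, 3206, 6759 and 6019 CPM, against 2531, 1622, 4968 and 3879 CPM in mural cells. The 4 vesicle genes stood at 417, 444, 871 and 836 CPM in fibroblasts, at 213, 231, 536 and 481 CPM in mural cells, and between 44 and 262 CPM in the other classes. Regulators and degradation genes were the exceptions. After infarction the 4 regulators were highest in neutrophils, at 453 and 414 CPM against 345 and 322 CPM in fibroblasts, and the 3 degradation genes were highest in mononuclear phagocytes in the control library (222 CPM) and in B cells in the deletion-labelled one (276 CPM). Without infarction the regulators and degradation genes of the control library were highest in fibroblasts (441 and 289 CPM). In the deletion-labelled library without infarction the regulators stood at 362 CPM in fibroblasts, above all other classes, and degradation genes at 260 CPM in B cells and 237 CPM in fibroblasts.

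**Figure D2:**
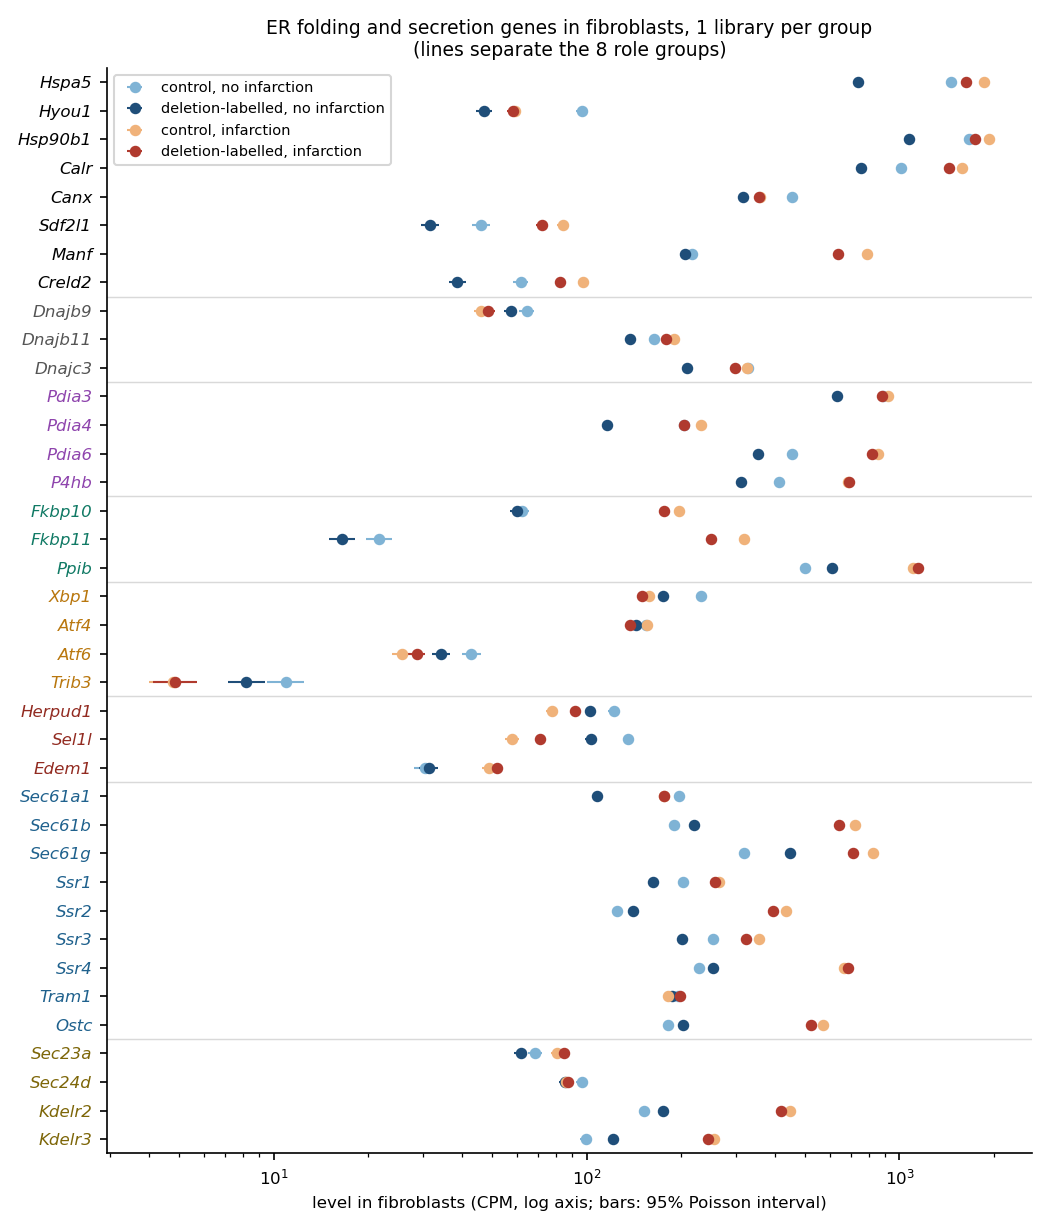
Level of each of the 38 genes in fibroblasts (x axis, CPM on a log axis) in the 4 libraries, with 95% Poisson intervals and lines between the 8 role groups. Hspa5 shows the control library without infarction at 1456 CPM beside the deletion-labelled one at 736 CPM, and Fkbp11 shows both infarction libraries at 318 and 249 CPM, above 21.8 and 16.6 CPM.

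Without infarction, 7 of the 38 genes were at least 1.5-fold lower in deletion-labelled than in control fibroblasts, and 0 were higher by that much. Each of the 38 reached 10 UMIs in one sum or the other, so none was left out. Of all 14235 genes with as many UMIs, 7.50% were lower and 9.32% higher by that fold, and of the 3710 genes that reached 50 CPM, 3.69% were lower and 2.40% higher. The median log2 ratio of the members was -0.32, beside -0.05 over the genes of 50 CPM, and 29 of 38 members had a ratio below 0.

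The luminal chaperones stood lowest as a group, with 8 of 8 ratios below 0 and a median of -0.59. Hspa5 (ENSMUSG00000026864, mm10 chromosome 2, 34771970 to 34777547, plus strand) encodes BiP, the main chaperone of the ER lumen. It stood at 1456, 736, 1859 and 1630.0 CPM, so that the deletion-labelled library without infarction was the lowest of the 4. Its log2 ratio of deletion-labelled to control without infarction was -0.98 (-1.01 to -0.96). Hyou1 (chromosome 9, 44379490 to 44392369, plus strand), a nucleotide exchange factor for BiP, stood at 96.8, 47.0, 58.9 and 58.2 CPM. Here the control library without infarction was the one that stood apart, above the other 3, with a log2 ratio of -1.04 (-1.15 to -0.94). Hsp90b1, the ER member of the HSP90 family, stood at 1665, 1074, 1930 and 1743 CPM, a log2 ratio of -0.63 (-0.66 to -0.61) without infarction. Creld2, a stress-induced isomerase-like protein, stood at 61.6, 38.6, 97.3 and 82.3 CPM, with a log2 ratio of -0.67 (-0.80 to -0.55). Calr, Canx and Sdf2l1 did not reach 1.5-fold, at -0.42, -0.52 and -0.54, and Manf, a secreted and ER-resident stress protein, was near level at -0.08 (-0.13 to -0.02).

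Among the J-proteins, Dnajc3 (P58IPK) stood at 329, 210, 327 and 299 CPM with a log2 ratio of -0.65 (-0.70 to -0.60), while Dnajb11 and Dnajb9 stood at -0.26 and -0.17. All 4 disulfide isomerases had ratios below 0. Pdia4 was the one past 1.5-fold, at 205, 116, 232 and 205 CPM and a log2 ratio of -0.82 (-0.88 to -0.75). Pdia3, P4hb and Pdia6 stood at -0.50, -0.39 and -0.35. All 4 regulators were below 0 and within 1.5-fold, with Xbp1 at -0.40 (232 and 176 CPM), Atf6 at -0.33, Trib3 at -0.42 and Atf4 at -0.11. Of the degradation genes, Sel1l, the partner of the HRD1 ubiquitin ligase, stood at -0.40, Herpud1 at -0.25 and Edem1 at 0.03.

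The translocon, vesicle and prolyl isomerase genes did not share this direction. Sec61a1, the pore of the channel, stood at 198, 108, 177 and 177 CPM with a log2 ratio of -0.87 (-0.94 to -0.80). The small subunits of the same channel went the other way and within 1.5-fold, with Sec61g at 0.48 (0.44 to 0.53; 319 and 446 CPM) and Sec61b at 0.21 (0.15 to 0.27). Ssr2, Ostc and Ssr4 stood at 0.17, 0.16 and 0.15, Ssr1 and Ssr3 at -0.32 and -0.33, and Tram1 at -0.05. Kdelr3 and Kdelr2, receptors that return ER proteins from the Golgi, stood at 0.29 and 0.20, and the COPII coat genes Sec24d and Sec23a at -0.18 and -0.15. Ppib, the cyclophilin that acts on collagen, stood at 0.28 (0.25 to 0.32; 498 and 607 CPM), Fkbp10 at -0.05 and Fkbp11 at -0.39.

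**Figure D3:**
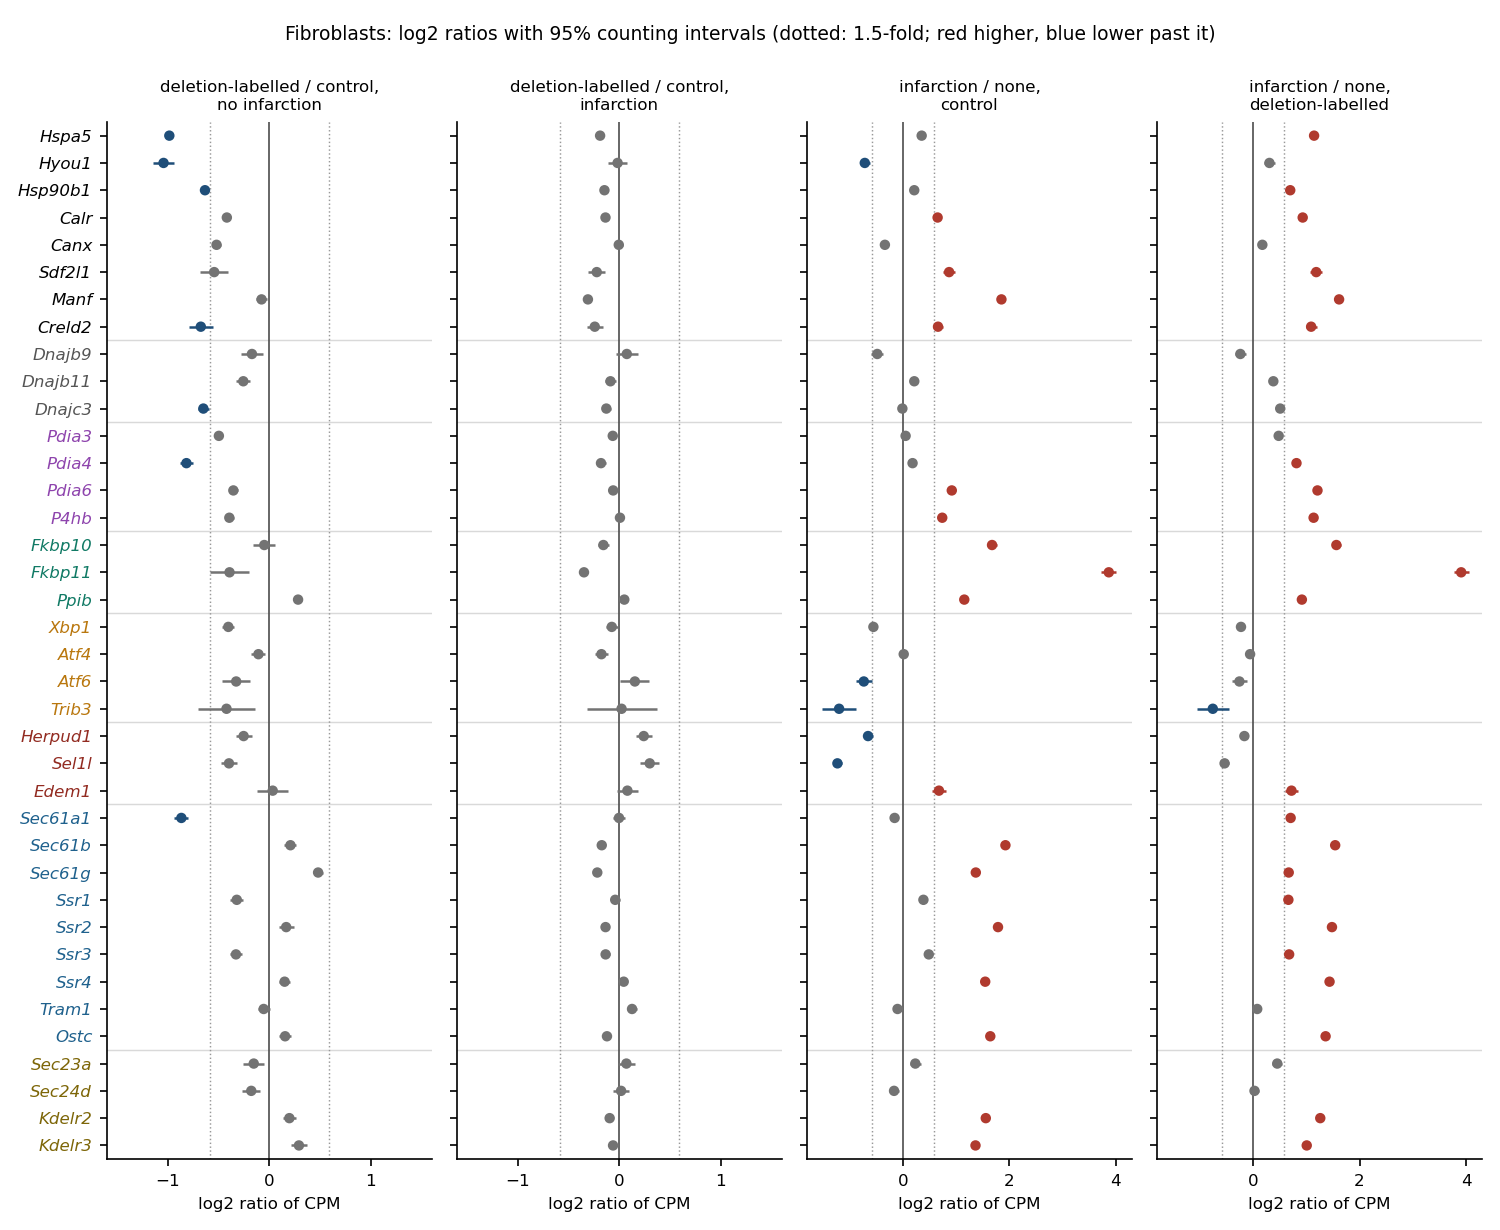
Log2 ratio of CPM in fibroblasts (x axes) for the 38 genes in the 4 comparisons of libraries, with 95% counting intervals, dotted lines at 1.5-fold, and colour for genes past them. Without infarction 7 genes lie left of the line in the genotype comparison, after infarction none does, and the infarction comparisons show 17 and 23 genes to the right. Panels that share a library are not independent of each other.

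Sec61a1 was not low in fibroblasts alone. Over all kept cells it stood at 231 CPM in the control library without infarction and at 96.9, 109 and 113 CPM in the other 3. It was lower in the deletion-labelled library in 6 of 6 classes without infarction, by log2 ratios from -2.18 in B cells to -0.71 in T or NK cells. In unnamed cells under 1000 UMIs it reached 2033 CPM (225 UMIs) in the control library and 442 CPM (127 UMIs) in the deletion-labelled one without infarction. Without Sec61a1 the count in fibroblasts is 6 lower of 37. Whether RNA from outside the counted cells has a part in its ratios was not tested.

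Set beside the promoter letters, the 9 genes with an ERSE or ERSE-II stood lower without infarction than the genes whose window held neither, which is a description with no test. All 9 had a ratio below 0, with a median of -0.52 and a range from -0.98 (Hspa5) to -0.25, and 4 of 9 were past 1.5-fold. Of the 20 genes whose window held neither, 14 were below 0, with a median of -0.25 and a range from -0.82 (Pdia4) to 0.48 (Sec61g), and 1 of 20 was past 1.5-fold. Hyou1 and Sec61a1, the other genes past 1.5-fold, had no window to search. Beyond the 4 genes whose upstream bases are shown, Calr, Canx and Pdia6 hold the same element with ratios of -0.42, -0.52 and -0.35. Hspa5, Calr, Hsp90b1, Canx and Creld2 are also luminal chaperones, the role group that stood lowest, so the groupings by element and by role overlap. After infarction the medians of the same 9 and 20 genes between genotypes were -0.13 and -0.05. For infarction over none, control medians were 0.21 and 0.44. Of these genes 3 of 9 and 9 of 20 were past 1.5-fold higher, and 1 and 2 lower. Deletion-labelled medians were near each other, at 0.70 and 0.67, with 5 and 12 genes higher and 0 and 1 lower.

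Transcript length moved with this comparison over all genes. Among genes of 50 CPM the median log2 ratio was 0.34 for transcripts under 1000 bases, 0.20 from 1000 to 2000, -0.02 from 2000 to 4000 and -0.20 from 4000 bases on. The 21 members of 2000 to 4000 bases had a median of -0.35 beside the -0.02 of that bin, the 8 members of 1000 to 2000 bases 0.16 beside 0.20, and the 8 of 4000 bases or more -0.36 beside -0.20. Less the median of its own bin, the members' median was -0.22 and 7 of 38 were at least 1.5-fold lower, without Dnajc3, which stood at -0.45. Sec61b, the single member under 1000 bases, stood at 0.21 beside the 0.34 of its bin.

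**Figure D4:**
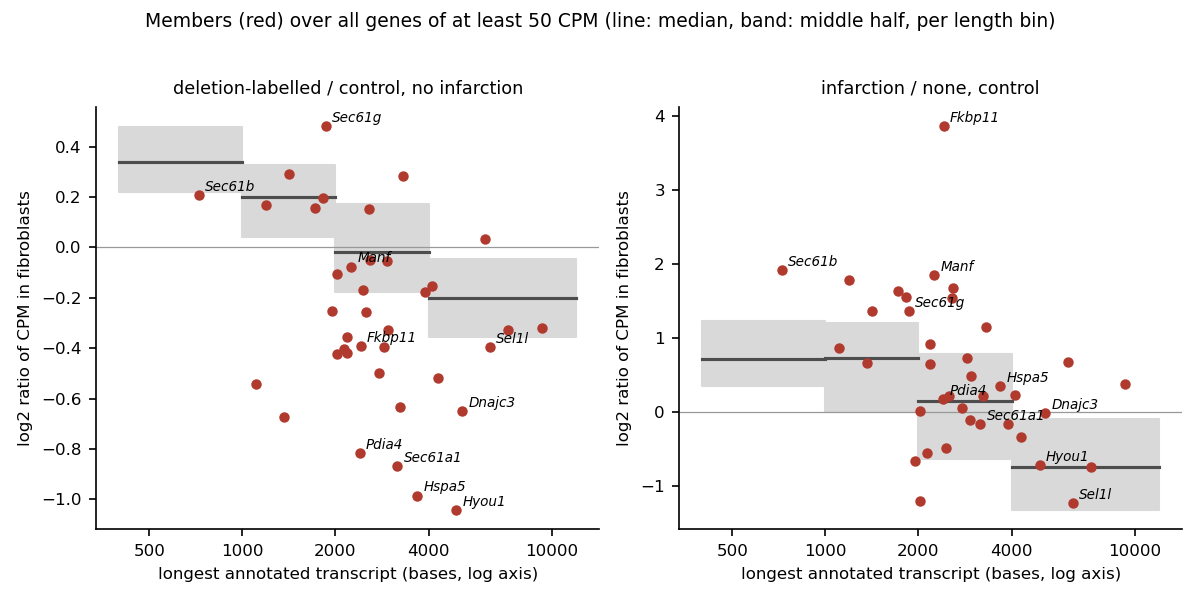
Log2 ratio of CPM in fibroblasts (y axes) against the longest annotated transcript (x axes, bases, log axis) for the 38 genes (red points), over the median (line) and interquartile range (band) of all genes of at least 50 CPM in 4 length bins. Without infarction (left) Hyou1, Hspa5, Sec61a1 and Pdia4 lie below the bands while Sec61b, at 0.21, lies at the lower edge of its band, and after infarction in the control (right) Fkbp11, at 3.87, lies far above its bin.

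Few other genes of the pathway were past 1.5-fold. Among 115 other ER genes of 5 lists with enough UMIs, 4 stood higher and 3 lower, and their median was -0.08. The 22 other folding genes held none past 1.5-fold and a median of -0.16, from Uggt1 (-0.54) and Pdia5 (-0.52) to Prdx4 (0.37) and Cnpy2 (0.49). Other translocon and oligosaccharide genes ran from Rpn1 (-0.54) and Magt1 (-0.52) to Tmem258 (0.59) and Ost4 (0.64), the last pair being small subunits of the oligosaccharyltransferase. Other degradation genes ran from Edem3 (-0.60) and Nploc4 (-0.38) to Derl2 (0.21) and Selenok (0.32), and other vesicle genes from Mia3 (-0.53) and Sec16a (-0.41) to Sar1b (0.30) and Bet1 (0.34). Other sensors and stress targets ran from Aldh1l2 (-1.26) and Psat1 (-0.54) to Phgdh (0.29) and Cebpb (0.59). These ranges hold genes with at least 30 UMIs in either sum. Of the genes with 10 to 29 UMIs, those past these ranges, named after their values were seen, were Derl3 at -1.59 (16 UMIs in the control and 7 in the deletion-labelled library) and Slc7a11 at 0.88 (12 and 29 UMIs).

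Of 18 cytosolic and mitochondrial heat-shock genes, 5 were at least 1.5-fold lower in the deletion-labelled library, 0 were higher and 13 were within that fold, beside 7.50% lower of all genes tested. Their median was -0.43. Hsph1 stood at 78.7 CPM in the control and 37.7 CPM in the deletion-labelled library, Hspa1a at 60.6 and 34.5 CPM, Cacybp at 0.02 and Hspe1 at 0.30 on the log2 scale. Of 17 genes that tissue digestion is known to induce, the median lay on the other side, with 2 higher and 0 lower and a value of 0.22. Among them Klf2 stood at 0.70 and Nr4a1 at 0.64, and Atf3 at -0.36 and Ier3 at -0.27. Neither difference was seen in fibroblasts alone. The heat-shock median was -0.35 in mural cells, -0.37 in endothelial cells and -0.42 in B cells. The digestion median was 0.37, 0.36 and 0.19 in the same classes. The part of either list in the members' ratios was not tested. In fibroblasts the 17 collagen genes held 0 past 1.5-fold and a median of -0.17. They ran from Col4a2 (-0.56) and Col4a1 (-0.53) to Col14a1 (0.07) and Col1a2 (0.13).

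A lower level per cell was also read at equal depth. With each fibroblast thinned to 5000 UMIs, the 38 genes gave a median of 52 UMIs per cell in the control and 42 in the deletion-labelled library without infarction, from 1792 and 1878 cells. The 10th and 90th percentiles were 33 and 81 UMIs in control cells, against 29 and 58 in deletion-labelled cells. After infarction the medians were 81 and 67 UMIs, with 90th percentiles of 124 and 114, from 820 and 1321 cells. Cells too shallow to thin numbered 62, 29, 67 and 96. Cells are not replicates, and these values describe 1 library each.

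Fibroblast states were clustered without the member and pathway genes. In the Smoc2-type resident state, 8 of 38 were at least 1.5-fold lower and 0 higher without infarction (7.86% and 8.84% of all genes tested), and the median was -0.31. Hyou1 (-1.15) and Hspa5 (-1.05; 1487 and 718 CPM) were again the lowest. In the Pi16-type adventitial state, 3 of 38 were lower and 0 higher (8.23% and 9.53% of all genes tested), so the share of lower members was near the background, with Sec61a1 at -0.69, Hspa5 at -0.66 and Pdia4 at -0.61, and a median of -0.22. The resident state was held by different sub-clusters in the 2 libraries. A sub-cluster led by Gm8797, Gsta3 and Lrrc55 held 1293 cells of the deletion-labelled and 65 of the control library, while those led by Adap2 and by Abca6 held 729 and 413 control cells and 23 and 30 of the other. Within the sub-cluster of 1293 and 65 cells the summed members stood at 8637 CPM in the deletion-labelled and 12208 CPM in the control cells, with Hspa5 at 729 and 1684 CPM. The sub-cluster led by Sema3c, Efhd1 and Cmah, which makes up the Pi16-type state, held 202 control and 186 deletion-labelled cells. Its summed members stood at 10788 and 9209 CPM, and Hspa5 at 1374 and 868 CPM.

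After infarction, 0 of the 38 members differed by 1.5-fold between the fibroblasts of the deletion-labelled and the control library, in either direction. Of all 14623 genes tested, 13.8% were higher and 5.27% lower, and of the 3277 of 50 CPM, 5.92% and 1.68%. The median log2 ratio of the members was -0.07, beside -0.05 over the genes of 50 CPM, and -0.21 when cells were weighted equally by the mean of CPM over cells. At equal depth the median cell also had fewer member UMIs in the deletion-labelled library, 67 against 81. Hspa5 stood at -0.19 (-0.21 to -0.17) and Hyou1 at -0.02 (-0.11 to 0.08). The lowest members were Fkbp11 at -0.35, Manf at -0.31 and Creld2 at -0.24, and the highest were Sel1l at 0.30, Herpud1 at 0.24 and Atf6 at 0.15. All 3 degradation genes were above 0, with Edem1 at 0.08, and all 8 luminal chaperones below it.

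The infarction libraries differed in which fibroblast sub-clusters they held. The activated state numbered 349 control and 787 deletion-labelled cells, and 424 of the latter were in a sub-cluster led by Serpina3n, Dbp and Prg4 that held 16 control cells. That sub-cluster scored 0.053 for the activated state, barely above the naming limit of 0.05, where the one led by Cthrc1 scored 0.567. The Serpina3n sub-cluster had 11558 CPM of summed members and Fkbp11 at 75.9 CPM. In the sub-cluster led by Cthrc1, Acta2 and Tagln, which both libraries filled, with 273 control and 301 deletion-labelled cells, the sum stood at 18862 and 18874 CPM and Fkbp11 at 354 and 332 CPM. In the activated state as a whole the median was -0.11, from Fkbp11 (-0.48) to Herpud1 (0.42). That median was 0.033 with sub-clusters drawn at resolution 0.5 and -0.22 with the mean of CPM over cells. In cycling fibroblasts, with 284 and 233 cells, the median was 0.06, from Atf4 (-0.11) to Edem1 (0.16).

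Other pathway lists gave few genes past 1.5-fold after infarction between genotypes, with 2 higher and 3 lower of 116. Low ones were Derl3 (-1.36), Chac1 (-1.53), Ero1lb (-0.74), Asns (-0.58), Srp9 (-0.44), Srprb (-0.32), Mcfd2 (-0.29), Erp29 (-0.19), Edem2 (-0.17) and Sec13 (-0.17). High ones were Atf3 (0.89), Vldlr (0.83), Os9 (0.42), Fkbp9 (0.31), Fkbp7 (0.26), Erlec1 (0.26), Mia3 (0.15), Sec24a (0.14), Tusc3 (0.09) and Srp54a (0.08). Of the 17 collagens, 2 were higher, Col6a1 (0.93) and Col6a2 (0.95), while Col1a1 (0.02) and Col12a1 (-0.01) were level. The heat-shock list had a median of -0.29, from Hspd1 (-0.55) and Stip1 (-0.50) to Hspa1b (0.47) and Hspa1a (0.66), and the digestion list one of 0.41, from Ier3 (-0.07) and Zfp36 (0.01) to Atf3 (0.89) and Klf4 (0.92).

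More members were past 1.5-fold with infarction than with genotype, and so were more of all genes tested. In control fibroblasts 17 of 38 were at least 1.5-fold higher after infarction and 5 lower, where 25% of all 14664 genes tested were higher and 40.6% lower, and 30.5% and 35.3% of the 4133 of 50 CPM. The median was 0.37 beside -0.10 over the genes of 50 CPM. Scaling by median of ratios, which centres the genes of 10 UMIs in both sums, whose median stood at -0.33, gave 20 higher and 2 lower. The share of all genes was not read under that scaling. The libraries without and with infarction differ in depth per fibroblast, at 10534 and 30053 UMIs, and long transcripts stood lower over all genes, with a bin median of -0.75 from 4000 bases on against 0.72 under 1000 bases.

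All 3 prolyl isomerases were higher after infarction in both genotypes. Fkbp11 (ENSMUSG00000003355, chromosome 15, 98724366 to 98728198, minus strand), an isomerase of secretory cells, stood at 21.8, 16.6, 318 and 249 CPM, with both infarction libraries above both others. Its log2 ratio was 3.87 (3.73 to 4.01) in the control and 3.91 (3.77 to 4.05) in the deletion-labelled hearts. Fkbp10, which acts on collagen and is mutated in a brittle bone disease, stood at 62.0, 60, 198 and 177 CPM, with log2 ratios of 1.67 in the control and 1.57 in the deletion-labelled hearts. Ppib stood at 498, 607, 1108 and 1146 CPM, with ratios of 1.15 and 0.92.

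Small translocon subunits and the retrieval receptors were higher too. In the control, log2 ratios were 1.93 for Sec61b (190 to 723 CPM), 1.79 for Ssr2 (125 to 433 CPM), 1.64 for Ostc (183 to 569 CPM), 1.55 for Ssr4 (228 to 666 CPM) and 1.37 for Sec61g (319 to 825 CPM). Kdelr2 stood at 1.56 (152 to 448 CPM) and Kdelr3 at 1.36 (99.4 to 256 CPM). The other members of these groups were within 1.5-fold, with Ssr3 at 0.49, Ssr1 at 0.39, Tram1 at -0.10 and Sec61a1 at -0.16, and the coat genes Sec23a at 0.23 and Sec24d at -0.17.

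The luminal chaperones divided, with 4 of 8 higher and 1 lower. Manf went from 218 to 786 CPM in the control (1.85; 1.8 to 1.9), Sdf2l1 from 46.0 to 84.0 CPM (0.87), Creld2 from 61.6 to 97.3 CPM (0.66) and Calr from 1010 to 1586 CPM (0.65). Hspa5 stood at 0.35 and Hsp90b1 at 0.21, within 1.5-fold, Canx at -0.34, and Hyou1 was lower, from 96.8 to 58.9 CPM (-0.72; -0.81 to -0.62). Less the median of all genes in the same transcript length bin, Manf stayed past 1.5-fold, at 1.70, while Calr (0.50), Sdf2l1 (0.14), Creld2 (-0.07) and Hyou1 (0.030) did not. Of the disulfide isomerases, Pdia6 (452 to 854 CPM; 0.92) and P4hb (411 to 685 CPM; 0.74), which is also a subunit of collagen prolyl hydroxylase, were past 1.5-fold, and Pdia4 (0.18) and Pdia3 (0.05) were not. The J-proteins Dnajb11, Dnajc3 and Dnajb9 stood at 0.21, -0.01 and -0.48.

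Regulators and degradation genes held the other members that were lower after infarction in the control. Trib3, a pseudokinase induced in the stress response, stood at 11 and 4.78 CPM (-1.20), and Atf6 at 42.9 and 25.8 CPM (-0.73). Xbp1 and Atf4 stood at -0.55 and 0.02. Sel1l stood at 136 and 57.8 CPM (-1.23; -1.32 to -1.14) and Herpud1 at 122 and 77.7 CPM (-0.65), while Edem1, a lectin of the degradation path, was higher, at 30.5 and 48.8 CPM (0.68). Centred by length in the same way, Sel1l (-0.48) and Atf6 (0.012) were within 1.5-fold. That centring also adds members past 1.5-fold. The bin from 4000 bases on stood at -0.75, which puts Ssr1, Sec23a and Dnajc3 past 1.5-fold higher. The bin from 2000 to 4000 bases stood at 0.15, which puts Xbp1 and Dnajb9 past 1.5-fold lower.

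In the deletion-labelled libraries 23 of 38 members were at least 1.5-fold higher after infarction and 1 lower, where 20.4% of all 14980 genes tested were higher and 32.6% lower, and 21.7% and 25.3% of the 3788 of 50 CPM. The median was 0.70. This comparison and that between genotypes without infarction share the deletion-labelled library without infarction, so a gene that is low there adds to both. Members past 1.5-fold here and not in the control were Hspa5 (736 to 1630.0 CPM; 1.15), Hsp90b1 (1074 to 1743 CPM; 0.70), Pdia4 (116 to 205 CPM; 0.82), Sec61a1 (108 to 177 CPM; 0.71), Ssr1 (163 to 258 CPM; 0.66) and Ssr3 (202 to 324 CPM; 0.68). The difference between the genotypes in the change with infarction has no replicate and was not tested. Beside the prolyl isomerases, the chaperones past 1.5-fold in both genotypes were Manf (207 to 634 CPM; 1.62), Sdf2l1 (31.6 to 72.0 CPM; 1.19), Creld2 (38.6 to 82.3 CPM; 1.09) and Calr (756 to 1443 CPM; 0.93), and the disulfide isomerases were Pdia6 (354 to 819 CPM; 1.21) and P4hb (313 to 688 CPM; 1.14). The translocon genes were Sec61b (220 to 641 CPM; 1.54), Ssr2 (141 to 394 CPM; 1.48), Ssr4 (253 to 686 CPM; 1.44), Ostc (203 to 523 CPM; 1.36) and Sec61g (446 to 709 CPM; 0.67). Kdelr2 (175 to 420 CPM; 1.26), Kdelr3 (122 to 245 CPM; 1.01) and Edem1 (31.3 to 51.6 CPM; 0.72) completed the set. Trib3 was the 1 member lower, from 8.19 to 4.85 CPM (-0.76; -1.06 to -0.45). The median of genes with 10 UMIs in both sums stood at -0.23 here. Less the median of its length bin, Sec61g was within 1.5-fold, at 0.34.

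Other genes of the pathway moved in the same comparisons. Of 116, the control had 48 higher and 11 lower (median 0.37) and the deletion-labelled hearts had 40 and 4 (median 0.39). High in the control were Slc7a11 (4.08), Asns (3.40), Srp9 (1.62), Prdx4 (1.54), Dad1 (1.41), Erp29 (1.39), Derl3 (1.25), Lman1 (1.10), Sec13 (1.06) and Edem2 (0.88). Low were Vldlr (-2.12), Os9 (-1.40), Atf3 (-1.25), Edem3 (-1.12), Ero1lb (-0.93), Mia3 (-0.88), Sec16a (-0.61), Srp54a (-0.58), Emc1 (-0.52) and Sec62 (-0.41). In the deletion-labelled hearts the high ones were Chac1 (3.21; 3 and 34 UMIs), Asns (3.08), Pdia5 (1.65), Ero1l (1.47), Lman1 (1.19), Dad1 (1.02), Surf4 (1.0), Spcs2 (0.91), Derl1 (0.59) and Selenos (0.55), each with at least 30 UMIs. Derl3, with 7 and 24 UMIs, stood at 1.48. The low ones were Ero1lb (-1.34), Vldlr (-1.23), Mbtps1 (-0.70), Os9 (-0.61), Sec62 (-0.49), Edem3 (-0.37), Srp54a (-0.35), Emc1 (-0.33), Sec24c (-0.25) and Mia3 (-0.21). Asns, asparagine synthetase, is a target of ATF4, whose own RNA stood at 0.02 and -0.05.

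Collagens and heat-shock genes also changed with infarction. Of 17 collagens 4 were higher and 9 lower in the control, from Col6a2 (-2.20) and Col6a1 (-2.01) to Col1a1 (1.19; 1471 to 3356 CPM) and Col12a1 (2.51), and 6 higher and 6 lower in the deletion-labelled hearts, where the same 4 genes stood at -1.07, -0.88, 1.16 and 2.85. Of 18 heat-shock genes 9 were higher and 2 lower in the control, from Hspa1b (-1.25) and Hspa1a (-0.81) to Hspe1 (1.83) and Hspd1 (1.86), and 11 higher and 0 lower in the deletion-labelled hearts, from Hspa1b (-0.16) and Bag3 (0.28) to Hspd1 (1.62) and Hsp90aa1 (1.66). Of the 17 digestion genes 12 were lower in each genotype and 1 and 2 higher, with Klf4 at -2.57 and -1.54, Jun at -1.50 in the control, Klf2 at -1.28 in the deletion-labelled hearts, Socs3 at 0.27 in the control, Fosb at 0.63 in the deletion-labelled hearts and Ier3 at 2.77 and 2.97. Markers of neutrophils summed to 4.19 and 13.2 CPM in fibroblasts without infarction and to 88.2 and 65.5 CPM after it, with 8 of 8 found in each library. The 8 markers of plasma cells, which are rich in ER, summed to 20, 14.4, 126 and 118 CPM, with 6, 7, 6 and 5 of them found and Ighg1 at 0 in each library. Their part in the members' ratios was not tested.

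In other cell classes without infarction, the members' median log2 ratio of deletion-labelled to control was -0.20 in mural cells and -0.19 in B cells, beside -0.04 and -0.12 over all genes tested. It was -0.02 in endothelial cells, -0.05 in mononuclear phagocytes and -0.04 in T or NK cells, beside 0.0036, -0.04 and -0.11 over all genes tested. All 5 medians were below 0, and with the mean of CPM over cells 3 of 5 were. Hspa5 was below 0 in 6 of 6 classes, from -0.98 in fibroblasts to -0.32 in T or NK cells. Hsp90b1, Canx, Pdia3, Pdia4 and the translocon genes Sec61a1 and Ssr3 also had 6 of 6 ratios below 0. Sec61b, Sec61g, Ssr4 and Ostc had 6 of 6 above 0. Short transcripts stood above 0 in the same 6 classes over all genes of 50 CPM. Bin medians under 1000 bases, where Sec61b lies, ran from 0.22 (T or NK cells) to 0.49 (mural and endothelial cells). From 1000 to 2000 bases, where Sec61g and Ostc lie, they ran from 0.11 (B cells) to 0.29 (endothelial cells). Ssr4, at 2568 bases, lies in the next bin, with medians from -0.07 (B cells) to 0.07 (endothelial cells). Hyou1 stood between -0.15 and -1.04 in the 4 classes with 30 of its UMIs, lowest in fibroblasts.

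In mural cells 6 of 36 members were past 1.5-fold lower and 1 higher (15.1% and 15% of all genes tested), with Sec61a1 at -1.52, Pdia4 at -1.11 and Sdf2l1 at -1.09, and Kdelr3 at 0.43, Sec61b at 0.45 and Sec61g at 0.71. The mural cluster led by Myh11, Myl9 and Tagln held 8 control and 104 deletion-labelled cells without infarction. That led by Abcc9, Kcnj8 and Vtn held 186 and 435, so the class was mixed in unlike shares. B cells, of 383 and 159 cells, held 9 lower and 2 higher of 34 (18.8% and 9.35% of all genes tested), with Sec61a1 at -2.18, Sdf2l1 at -2.05 (-4.02 to -0.54) and Pdia4 at -1.31 lowest, and Dnajb11 (0.33), Ssr2 (0.54) and Kdelr2 (0.63) highest. Endothelial cells, the largest class here with 4617 and 5767 cells, held 1 lower and 2 higher of 38 (9.30% and 9.72% of all genes tested). Their lowest were Sec61a1 (-1.6), Hsp90b1 (-0.52) and Xbp1 (-0.50), and their highest Ppib (0.39), Sec61b (0.61) and Sec61g (0.81; 158 to 277 CPM). Mononuclear phagocytes held 1 lower and 2 higher of 35 (9.34% and 9.42% of all genes tested), from Sec61a1 (-1.04), Hspa5 (-0.39) and Xbp1 (-0.34) to Sec61g (0.44), Ostc (0.45) and Sdf2l1 (0.69). T or NK cells held 4 lower and 0 higher of 31 (22.2% and 11.2% of all genes tested), from Ssr3 (-0.86), Sel1l (-0.72) and Sec61a1 (-0.71) to Manf (0.39), Ppib (0.40) and Sec61b (0.44).

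**Figure D5:**
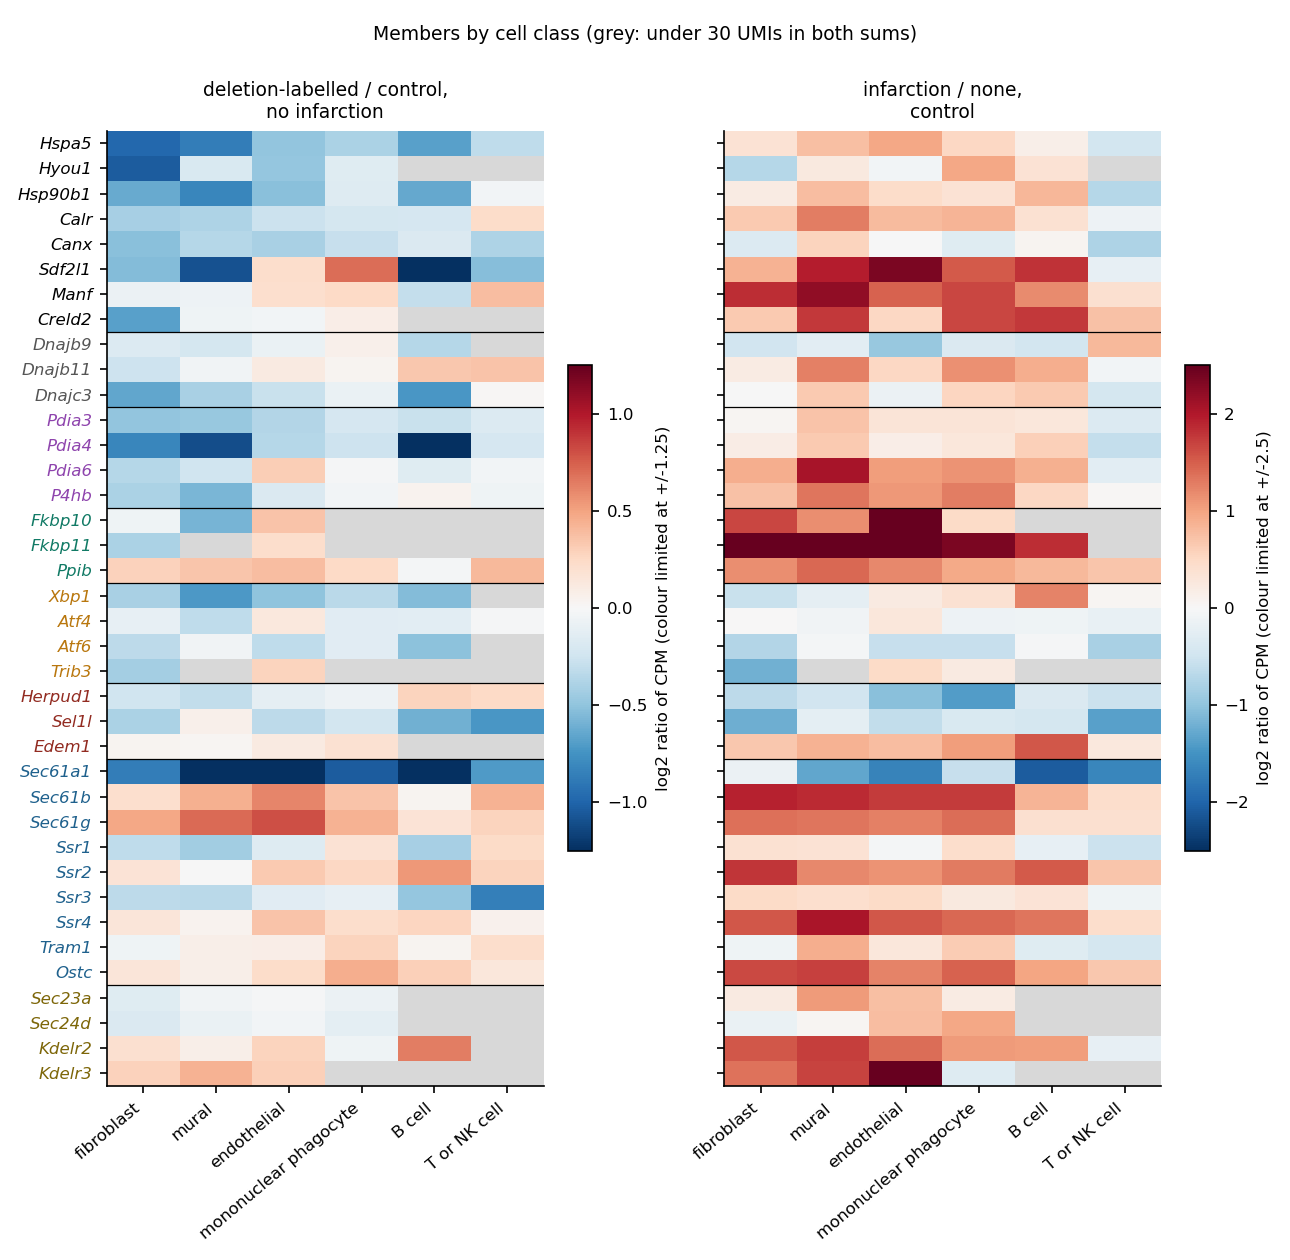
Log2 ratio of CPM for the 38 genes (rows) in 6 cell classes (columns), for deletion-labelled over control without infarction (left) and infarction over none in the control (right), with separate colour scales of different range. Sec61a1 is blue in every class on the left and on the right, where it runs from -0.16 to -2.08, Hspa5 is blue in every class on the left, and Ssr2 and Ppib are red in every class on the right.

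After infarction mural cells had a median between genotypes of -0.21 with 30 of 37 members below 0, beside 0.12 over all genes tested. Medians were -0.05 in endothelial cells, 0.04 in mononuclear phagocytes, -0.15 in neutrophils (32 of 38 below 0), 0.09 in B cells and 0.03 in T or NK cells, beside 0.09, 0.07, -0.06, 0.0099 and -0.01 over all genes tested. B cells went against fibroblasts, with Hspa5 at 0.63 (500 and 774 CPM), Hsp90b1 at 0.61 and Creld2 at 0.94 highest and Xbp1 (-0.58), Atf6 (-0.48) and Sec61a1 (-0.42) lowest. Endothelial cells ran from Fkbp11 (-0.48), Sec23a (-0.38) and Sec61b (-0.22) to Atf6 (0.20), Dnajb9 (0.64) and Herpud1 (0.77), and mural cells from Hspa5 (-0.53), Dnajc3 (-0.49) and Manf (-0.48) to Sel1l (0.15), Sec24d (0.16) and Herpud1 (0.27). Mononuclear phagocytes ran from Fkbp10 (-0.38), Sdf2l1 (-0.19) and Fkbp11 (-0.16) to Hyou1 (0.27), Kdelr3 (0.30) and Atf6 (0.35). Neutrophils ran from Fkbp10 (-0.59), Fkbp11 (-0.51) and Sdf2l1 (-0.42) to Tram1 (0.26), Herpud1 (0.31) and Sec23a (0.47), and T or NK cells from Sel1l (-0.67), Pdia4 (-0.43) and Dnajb9 (-0.36) to Ssr1 (0.32), Canx (0.43) and Hyou1 (0.47). Herpud1, a target of the stress response that helps degradation, was above 0 in 6 of 7 classes, fibroblasts included. It stood at -0.07 in T or NK cells. Sel1l was also above 0 in 6 of 7 classes. Other members went the other way, with Xbp1 and Ssr2 below 0 in 7 of 7 classes and Atf4, Sec61g and Ssr3 in 6 of 7.

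The members' median ratio of infarction to none was above 0 in 4 of 5 other classes in the control, at 0.91 in mural cells, 0.64 in endothelial cells, 0.60 in B cells and 0.59 in mononuclear phagocytes, and at -0.21 in T or NK cells. In the deletion-labelled libraries it was 0.96, 0.71, 0.65 and 0.68 in the same 4 classes, 0.68 in neutrophils and 0.0 in T or NK cells. In control mural cells 25 of 37 were past 1.5-fold higher and 1 lower (22.4% and 39.9% of all genes tested), with Fkbp11 (3.18), Manf (2.21) and Pdia6 (2.06) highest and Sec61a1 (-1.29), Herpud1 (-0.48) and Dnajb9 (-0.26) lowest. Control endothelial cells held 19 higher and 4 lower of 38 (25.3% and 31.7% of all genes tested). Fkbp11 (3.22; 47 and 61 UMIs), Fkbp10 (3.17; 110 and 138 UMIs) and Kdelr3 (3.09; 76 and 90 UMIs) were highest there, and Sec61a1 (-1.68), Herpud1 (-1.05) and Dnajb9 (-0.95) lowest. Control mononuclear phagocytes held 19 higher and 1 lower of 38 (21.1% and 39.2% of all genes tested), from Herpud1 (-1.40), Atf6 (-0.58) and Sec61a1 (-0.57) to Manf (1.68), Sec61b (1.74) and Fkbp11 (2.36). Control B cells held 18 higher and 2 lower of 35 (10.5% and 30.4% of all genes tested), from Sec61a1 (-2.08), Dnajb9 (-0.45) and Sel1l (-0.44) to Creld2 (1.77), Sdf2l1 (1.8) and Fkbp11 (1.85). Control T or NK cells held 5 higher and 7 lower of 33 (15.5% and 23.9% of all genes tested), from Sec61a1 (-1.62), Sel1l (-1.35) and Atf6 (-0.81) to Ssr2 (0.70), Creld2 (0.74) and Dnajb9 (0.82).

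In the deletion-labelled libraries, which leave out the library where it stood high, Sec61a1 stood at 0.71 in fibroblasts, -0.75 in T or NK cells, -0.60 in neutrophils and -0.32 in B cells. Mural cells there held 24 higher and 0 lower of 37 (18.3% and 29.8% of all genes tested), from Dnajb9 (-0.32), Sel1l (-0.17) and Atf6 (0.03) to Pdia6 (1.90), Sdf2l1 (2.74) and Fkbp11 (4.48; 3.39 to 5.83). Endothelial cells held 20 higher and 0 lower of 38 (21.2% and 22.1% of all genes tested), from Sel1l (-0.26), Dnajb9 (-0.22) and Herpud1 (-0.17) to Fkbp11 (2.51), Kdelr3 (2.60) and Fkbp10 (2.67). Mononuclear phagocytes held 21 higher and 3 lower of 38 (20% and 33.5% of all genes tested), from Herpud1 (-1.25), Kdelr3 (-0.84) and Trib3 (-0.18) to Sec61b (1.44), P4hb (1.52) and Creld2 (1.63). Neutrophils held 23 higher and 4 lower of 38 (29.1% and 17.1% of all genes tested), from 102 cells without infarction. Manf (3.32; 1.45 to 6.37), Ssr2 (2.0) and Pdia6 (1.70) were highest there, with 2 UMIs of Manf without infarction, and Trib3 (-1.15), Herpud1 (-0.63) and Sec61a1 (-0.60) lowest. B cells held 22 higher and 0 lower of 34 (14.1% and 20.7% of all genes tested), from Tram1 (-0.41), Sec61a1 (-0.32) and Herpud1 (-0.18) to Creld2 (2.32), Fkbp11 (3.04) and Sdf2l1 (4.24; 2.85 to 6.13; 4 and 171 UMIs). T or NK cells held 3 higher and 5 lower of 35 (15.8% and 19.1% of all genes tested), from Herpud1 (-0.85), Pdia4 (-0.81) and Sec61a1 (-0.75) to Sdf2l1 (0.48), Ostc (0.49) and Ssr3 (0.62).

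The cells behind these classes changed with infarction. Mononuclear phagocytes without infarction were mostly those of a cluster led by Mgl2, Hpgd and Cd163, with 532 and 340 cells, which held 2 control cells after infarction, when clusters led by Ms4a4c, Plac8 and Dmkn and by Saa3, Marco and Ltc4s held most of the class. Endothelial cells numbered 226 and 534 after infarction. Mural cells numbered 200, 542, 81 and 181 in the order of libraries. After infarction 68 and 98 of them were in a cluster led by Gm13889, Acta2 and Tagln, which held 6 and 3 without it. The part of the make-up of a class in its ratios was not tested. A pair of clusters of the infarction libraries scored as mononuclear phagocytes but were led by genes of other lists, and were compared by number. They held 1399 and 1125 cells, led by Spp1, and 477 and 372 cells, led by H2-DMb1, beside 1419 and 1226 in the named class. The levels and ratios given for the class leave these cells out. The one led by Spp1, Gpnmb and Ccl7 had 11653 and 10139 CPM of summed members, with a median log2 ratio between genotypes of -0.08, and the one led by H2-DMb1, H2-Eb1 and Cd209a had 9111 and 9085 CPM, with a median of 0.02.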

How the data were processed

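Single-cell RNA of sorted interstitial heart cells was read in 4 libraries, 1 per group. The deposited values are UMI counts per gene and barcode, made by the authors with Cell Ranger 5.0.1 on mm10, per the submitters' processing notes. The members and all lists were chosen with earlier results of these data known. Barcodes with 500 UMIs, 200 genes and at most 20% mitochondrial UMIs were kept, and doublets (0.8% per 1000 barcodes) were removed by simulated pairs. Cells were clustered on 2000 variable genes without member, pathway or heat-shock genes (30 components, 20 neighbours, Leiden resolution 1.0, igraph 0.11.9, scipy 1.17.1). Classes and states were named from marker lists, with naming limits set after seeing the data. Fibroblast sub-clusters with at least 2 leading genes that mark a leukocyte, endothelial or other class were left out. Those without a state name stayed in the fibroblast sums, with 356, 230, 233 and 284 cells in the order of libraries. UMIs were summed per class and library and scaled to CPM. A gene counted as higher or lower from 1.5-fold on, with 10 UMIs in either sum, and a sum of 0 was set to 3 UMIs as a bound. Intervals are exact (Poisson for levels, Clopper-Pearson for ratios) at 95%. The ratio and calling steps were tested on simulated data. Members past 1.5-fold in fibroblasts were named, and in other classes the 3 highest and 3 lowest of 30 UMIs. Lists of other genes are represented by their 2 highest and 2 lowest of 30 UMIs. Gene positions are those of mm10, and RefSeq sequences those of GRCm38.p6. Scaling, cell weights, filters, clustering and the fold were varied.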

Additional observations from a re-analysis of the deposited data

Results flagged for a closer look

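Some members stood past 1.5-fold in opposite directions in fibroblasts and another class under the same pair of libraries. With 1 library per group these differences were not tested. Hyou1 after infarction in the control stood at -0.72 in fibroblasts and 0.96 in mononuclear phagocytes. Less the median of all genes in its transcript length bin, the fibroblast value was 0.030. The median of that bin was -0.57 in mononuclear phagocytes, so centring there would raise the 0.96 as well. Sec61a1 after infarction in the deletion-labelled libraries stood at 0.71 in fibroblasts, -0.60 in neutrophils and -0.75 in T or NK cells. Pdia4 in the same libraries stood at 0.82 in fibroblasts and -0.81 in T or NK cells.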

How the results depend on the processing

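No paired analysis was possible because no group holds a second library. Of 177 alternative values of the main counts, medians and sums, 159 stayed within the limits set for them, 17 moved and 1 reversed. Of 581 alternative values of single members, 441 stayed, 137 moved and 3 reversed. At 2-fold, 1 member was lower between genotypes without infarction. After infarction 11 were higher and 2 lower in control hearts, and 14 and 0 in deletion-labelled hearts. Shares over all genes were read at 1.5-fold and CPM scaling only, so counts under other settings have no background beside them. Median-of-ratios scaling left 2 and 0 members lower after infarction in control and deletion-labelled hearts, with medians of 0.70 and 0.93. With the mean of CPM over cells, the genotype median after infarction was -0.21, and in the deletion-labelled hearts 0 members were lower after infarction, with a median of 0.54. That weighting also left 3 of 5 other classes with a median below 0 without infarction, and 1 member lower in the activated state, with a median of -0.22. Sub-clustering at resolution 0.5 turned the activated state's median from -0.11 to 0.033. Centring by transcript length, added after seeing the data, gave genotype medians of -0.22 without and -0.0031 after infarction. It turned 3 members in the control after infarction, Hyou1 to 0.030, Creld2 to -0.072 and Atf6 to 0.012. The causes were not tested. Without infarction the count of lower fibroblast members was 6 to 8 under the alternatives other than 2-fold. Depth limits the values of B cells, T or NK cells and neutrophils, where members rest on few UMIs.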
